A study of Mus musculus with 503 samples.

Results

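The 8 genes described here, Col8a1, Col8a2, Col12a1, Col13a1, Col15a1, Col16a1, Col18a1 and Col23a1, encode collagens that do not themselves form the thick interstitial fibrils. They were taken as the rows with these symbols among 56701 gene rows, and all 8 were present in the table. Collagen VIII, built from the products of Col8a1 and Col8a2, assembles into hexagonal networks in vessel walls and under endothelia. Collagens XII and XVI belong to the fibril-associated group, which decorates fibrils of other collagens and alters how they slide and bind. Collagens XV and XVIII, the multiplexins, sit at basement membranes, carry glycosaminoglycan chains and release antiangiogenic fragments from their C termini (endostatin from collagen XVIII). Collagens XIII and XXIII are transmembrane collagens that are anchored in the cell surface and can be shed by proprotein convertases such as furin.

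Single cells were sorted from the thoracic spinal cord of GLAST-CreERT2;R26R-tdTomato;Pdgfrb-eGFP mice and profiled with Smart-seq3, a plate-based full-length single-cell RNA sequencing protocol. Every sample is labelled female. The study's methods restrict crush lesions to female mice, whereas its reporting summary names both sexes for sequencing. All mice had received tamoxifen, which activates the GLAST-driven Cre recombinase and leaves a permanent tdTomato mark, and the outer meninges had been removed. The EGFP reporter marks Pdgfrb-expressing perivascular cells (fibroblasts, pericytes and vascular smooth muscle cells, vSMCs). The sort separated GLAST-lineage cells that carried the tdTomato mark (tdTomato+EGFP+) from EGFP+ cells without it (tdTomato-EGFP+). The study's methods report fibroblasts with Slc1a3 (GLAST) and Pdgfra among its tdTomato-EGFP+ cells, described as GLAST cells without recombination, and leave them out. No such cells were left out here. Whether the fibroblast-like tdTomato-EGFP+ cells described below are of that kind was not tested. The tdTomato+EGFP+ cells are called tdT+ and the tdTomato-EGFP+ cells tdT- from here on. In uninjured cord, 65 and 72 tdT+ cells (plates 209 and 213) and 46 and 60 tdT- cells were kept, and 21 and 12 were removed. At 3 days after a complete crush of the cord at T10, 88 and 34 tdT+ cells (plates 211 and 215) and 58 and 45 tdT- cells were kept, and 0 and 2 were removed. The labels give 3 days, whereas the design text of the series gives 5 days, so the time of the cells called injured here is uncertain. Uninjured cells lay on plates 209 and 213 and injured cells on plates 211 and 215, with both sorted populations on every plate, so injury and plate cannot be told apart. No label tied a cell to an animal. Each group was therefore treated as 1 sample, no test was run between groups, and whether the plates of a condition hold cells of the same or of different mice is not known.

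Levels are pooled counts of all cells in a group, scaled to 1000000 counts of that group (CPM), with a 95% exact Poisson interval that covers counting error only. The groups held between 25645409 and 38406035 counts, so 3 counts corresponded to between 0.0781 and 0.117 CPM. The 34 tdT+ cells of plate 215 stood apart in depth, with a median of 14770 counts per cell against 182124 to 328802 in the other plates and populations. Summed levels of 6 endothelial markers were 4504 and 4806 CPM in the uninjured tdT+ and tdT- cells and 408 and 1794 CPM in the injured ones. Over 9 pericyte markers the sums were 11104, 12234, 730 and 11318 CPM in the order uninjured tdT+, uninjured tdT-, injured tdT+ and injured tdT-, and over 9 perivascular fibroblast markers they were 4382, 2339, 22150 and 9885 CPM. The part of these shifts in cell makeup in the group differences below was not tested, and in group sums fewer cells of a type and less RNA per cell cannot be told apart.

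The promoter stretches of the collagen VIII pair and of the multiplexins are shown because the chains of the first pair diverged after injury, and the multiplexins were each the gene most like the other across cells. Each run holds the 120 bases before the RefSeq transcription start (GRCm38.p6, the build named mm10 in the submitters' processing notes), 5′ to 3′ on the gene's strand, with matches to a searched motif in capitals.
Col8a1, chr16:57754738-57754857, minus strand: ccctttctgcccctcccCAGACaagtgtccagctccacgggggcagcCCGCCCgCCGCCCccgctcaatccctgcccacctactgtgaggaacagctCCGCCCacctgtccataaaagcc
Col8a2, chr4:126286674-126286793, plus strand: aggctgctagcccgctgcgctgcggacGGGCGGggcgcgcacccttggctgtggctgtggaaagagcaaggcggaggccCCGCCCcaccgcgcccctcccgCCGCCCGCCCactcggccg
Col15a1, chr4:47207892-47208011, plus strand: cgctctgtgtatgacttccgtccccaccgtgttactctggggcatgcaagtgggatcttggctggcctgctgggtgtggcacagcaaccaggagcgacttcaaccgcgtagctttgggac
Col18a1, outer start, chr10:77166531-77166650, minus strand: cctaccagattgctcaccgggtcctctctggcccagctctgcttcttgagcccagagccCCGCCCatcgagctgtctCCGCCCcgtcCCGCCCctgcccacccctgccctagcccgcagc
Col18a1, inner start, chr10:77113706-77113825, minus strand: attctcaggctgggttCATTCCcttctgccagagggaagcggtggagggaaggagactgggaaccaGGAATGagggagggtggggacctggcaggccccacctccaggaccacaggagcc
The letters searched, on both strands and over the 300 bases around each start, were the TATA box word TATAAA, the GC box word GGGCGG, the AP-1 word TGANTCA, the TEAD word GGAATG and the SMAD word CAGAC. The GC box word was found 4 times at Col8a1, 4 times at Col8a2, of which the last 2 overlap, 3 times at the outer Col18a1 start, 2 times at Col16a1 and once at Col23a1. It occurred in 35.7% of 32851 promoters of that length. The inner Col18a1 start held the TEAD word 2 times, present in 14.7% of promoters, and the SMAD word 1 time. The SMAD word, present in 49.6% of promoters, was also found at Col8a1 and, after the start, at Col15a1. Col13a1 held the TATA box word 1 time (13.6% of promoters), and the AP-1 word, present in 7.81%, was in none of these windows. A match describes letters only. Col12a1 was not among the promoters.

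In the mm10 genome (GENCODE M21), the members lay on 5 chromosomes. Col8a1 spans chr16:57624258-57754737, Col12a1 chr9:79598991-79718831 and Col23a1 chr11:51289920-51583918. Col13a1 (chr10:61838236-61979108) and Col18a1 (chr10:77052178-77166548) share chromosome 10. Col15a1 (chr4:47208161-47313167), Col8a2 (chr4:126286793-126314330) and Col16a1 (chr4:130047840-130099283) share chromosome 4. Only Col15a1 shared exonic bases with another gene, 14 bases with Gm12426 on the other strand. Levels of different members are compared here per kilobase of exon (CPM per kb), since exonic lengths ran from 4489 bases in Col8a2 to 15228 bases in Col12a1. On that scale Col15a1 and Col18a1 led in uninjured tdT+ cells, at 33.9 CPM per kb each, followed by Col8a2 at 6.54 and Col8a1 at 5.63. The remaining members lay between 2.32 (Col23a1) and 3.42 (Col12a1) CPM per kb. In injured tdT- cells the order was Col18a1 (79.2 CPM per kb), Col8a1 (54.5), Col15a1 (36.7) and Col12a1 (10.3), with Col8a2 at 3.86, Col16a1 at 1.19, Col23a1 at 0.673 and Col13a1 at 0.119. Whether reads or molecules were counted is not given in the sources used here, so the per-length order depends on how evenly transcripts were covered.

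**Figure D1:**
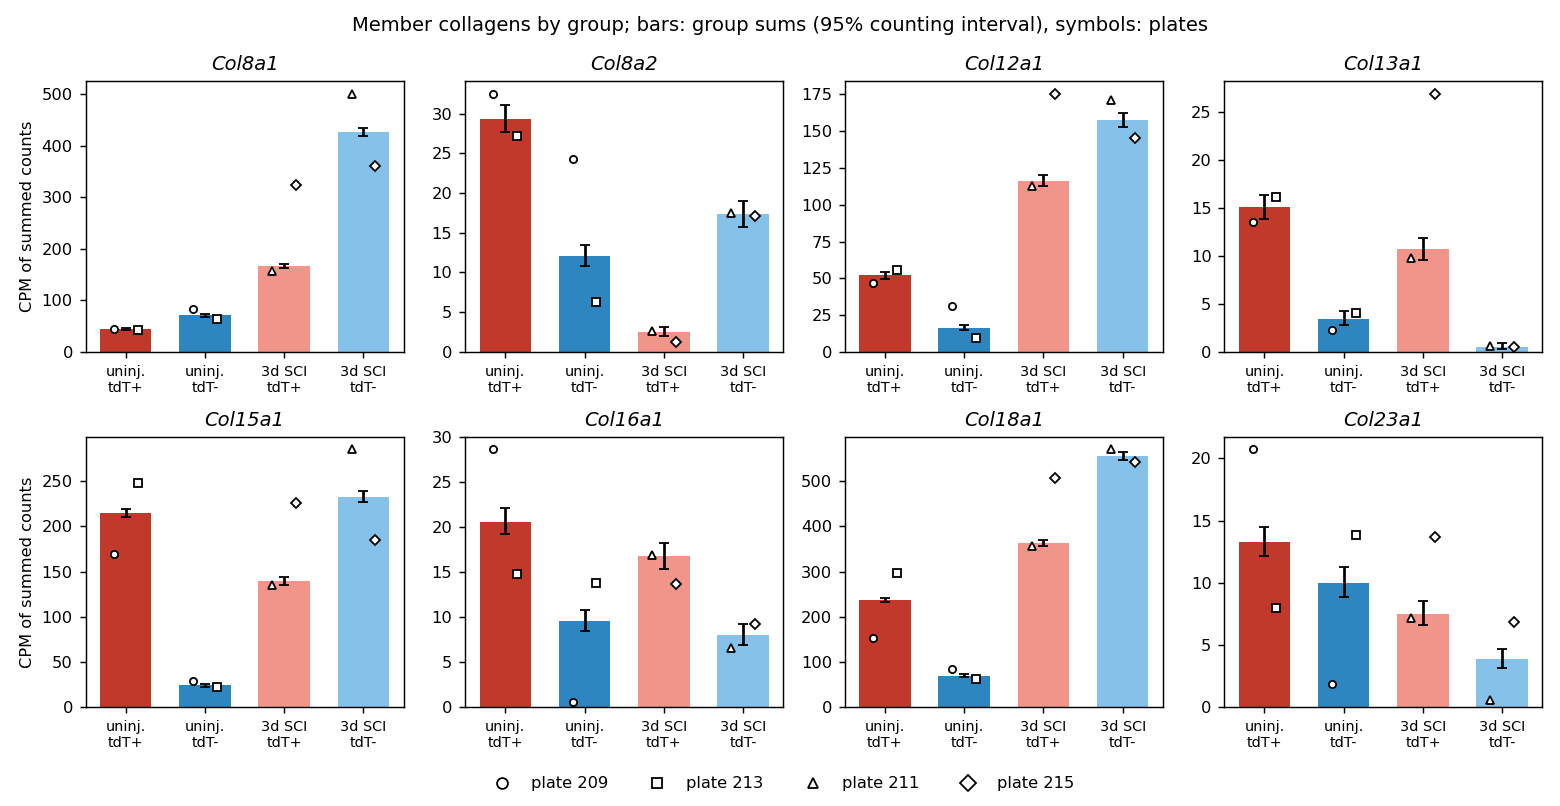
CPM of each member in the 4 groups (uninjured and injured tdT+ and tdT- cells), with bars for group sums, error bars for the 95% Poisson counting interval and symbols for plates. Col8a1 and Col18a1 were highest in injured tdT- cells (427 and 556 CPM), Col15a1 was lowest in uninjured tdT- cells (24.4 CPM), and plates 209 and 213 were far apart for Col16a1 and Col23a1.

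The multiplexins led the members per kilobase in uninjured tdT+ cells, and both were lower in uninjured tdT- cells and higher in injured tdT- cells. Col18a1 was at 238 CPM (233 to 243) in uninjured tdT+ cells, 69.7 CPM (66.5 to 72.9) in uninjured tdT- cells, 364 CPM (357 to 371) in injured tdT+ cells and 556 CPM (547 to 565) in injured tdT- cells. By plate, the uninjured tdT+ cells held 154.07 and 298 CPM, the uninjured tdT- cells 85.6 and 62.1, the injured tdT+ cells 356 and 507 and the injured tdT- cells 570 and 543. No plate of one group overlapped a plate of another for Col18a1. Col15a1 was at 215 CPM (210 to 220), 24.4 CPM (22.6 to 26.4), 140 CPM (135.6 to 143.9) and 233 CPM (227 to 239) in the same order of groups. Its plates gave 169 and 248, 29.3 and 22.1, 134.8 and 226, and 285 and 185 CPM. For Col15a1, then, the uninjured tdT- cells stood apart and the plates of the other 3 groups overlapped.

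Collagen VIII split into a chain that was higher after injury in both populations and a chain that was not. Col8a1, which encodes the alpha 1 chain, was at 44.1 CPM (42.0 to 46.2) and 70.6 CPM (67.5 to 73.9) in uninjured tdT+ and tdT- cells, and at 166 CPM (162 to 171) and 427 CPM (419 to 435) after injury. All 4 plate values of injured cells, 157.4, 324, 501 and 360 CPM, exceeded all 4 of uninjured cells, 45.3, 43.2, 83.4 and 64.6 CPM. Within plate 215, 1 cell held 75.7% of the Col8a1 counts of the tdT+ cells. Col8a2, which encodes the alpha 2 chain, was at 29.4 CPM (27.7 to 31.1) and 12.1 CPM (10.8 to 13.4) in the uninjured populations, and at 2.51 CPM (1.98 to 3.13) and 17.3 CPM (15.7 to 19.001) in the injured ones. The injured tdT+ plates, at 2.58 and 1.19 CPM, were below every other plate, the lowest of which was 6.25 CPM.

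Among the fibril-associated members, Col12a1 was higher in both injured populations, whereas Col16a1 was low throughout. Col12a1 was at 52.1 CPM (49.8 to 54.4) in uninjured tdT+ cells and 16.6 CPM (15.0 to 18.2) in uninjured tdT- cells, against 116.3 CPM (112.6 to 120.2) and 157.5 CPM (152.6 to 162) after injury. Plates of injured cells lay between 112.98 and 175 CPM and those of uninjured cells between 9.75 and 55.9 CPM, without overlap. Col16a1 was at 20.6, 9.56, 16.8 and 8.03 CPM in the usual order of groups. Its uninjured tdT- cells held 0.579 CPM on plate 209 and 13.8 CPM on plate 213, a spread wider in CPM than any difference between groups for this gene.

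The transmembrane members were low in every group, at no more than 3.26 CPM per kb. Col13a1 was at 15.0 CPM (13.8 to 16.3) in uninjured tdT+ cells, 3.46 CPM (2.79 to 4.24) in uninjured tdT- cells, 10.7 CPM (9.55 to 11.9) in injured tdT+ cells and 0.546 CPM (0.298 to 0.916) in injured tdT- cells, the last from 14 counts in 12 cells. On each of the 4 plates the tdT+ cells were above the tdT- cells. Col23a1 was at 13.3, 10.005, 7.52 and 3.86 CPM, but 1 cell carried 58.3%, 83.6%, 12.8% and 66.7% of its counts in these groups, and its group levels therefore rest on single cells in 3 of the 4.

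For comparisons, a gene was counted as different where its log2(CPM + 1) differed by 1 or more between group sums and the difference had the same sign on each plate (sort) or in each of the 4 plate pairs (injury). This is a rule of size and not a test. It was applied to the 12304 genes with a mean of at least 5 CPM over the groups, and all 8 members were among them.

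In uninjured cord, 6 of 8 members were higher in tdT+ than in tdT- cells and none was lower, where 4.45% of all genes were higher and 3.49% lower by the same rule (7.93% in either direction). The median difference was 1.41 on the log2 scale over the members and 0.01 over all genes. Col15a1 differed by 3.09 (2.49 and 3.43 on the plates), Col13a1 by 1.85 (2.13 and 1.78), Col18a1 by 1.76 (0.84 and 2.24), Col12a1 by 1.60 (0.58 and 2.40), Col8a2 by 1.22 (0.40 and 1.96) and Col16a1 by 1.03 (4.23 and 0.10). Col8a1 went the other way by less than the rule asks, at -0.67, and Col23a1 gave 0.38 with opposite signs on the plates. With CPM averaged over cells in place of sums, Col8a2 (0.76) and Col12a1 (0.68) no longer met the rule. Without plate 213, Col8a2, Col12a1 and Col18a1 did not meet it, and without plate 209 Col16a1 was at 0.10.

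Other collagens were less one-sided in the same comparison. Of 20 other collagen chains tested (36 listed), 5 were higher in tdT+ cells, including Col1a1 (1.33) and Col6a1 (1.70), and 1, Col14a1, a further fibril-associated collagen, was lower (-2.49), with a median of 0.26. Among the fibrillar collagens Col1a1, Col1a2, Col3a1, Col5a1 and Col5a2 only Col1a1 met the rule, and neither basement membrane collagen IV chain (Col4a1, 0.05, and Col4a2, 0.31) did.

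At 3 days after injury the sorted populations no longer differed in that one-sided way. Col13a1 was higher in tdT+ cells, by 2.92 (2.77 and 4.19 on the plates), while Col8a2 was lower, by -2.39 (-2.37 and -3.05), and Col8a1 was lower, by -1.35 (-1.66 and -0.15). That is 1 of 8 higher against 3.88% of all genes and 2 of 8 lower against 18.4%. The plate 215 value of Col13a1 rests on 45 counts in 34 tdT+ cells, 82.2% of them in 1 cell, and on 7 counts in tdT- cells. The remaining differences were 0.98 for Col16a1, 0.81 for Col23a1, -0.43 for Col12a1, -0.61 for Col18a1 and -0.73 for Col15a1. Those of Col12a1 (-0.59 and 0.27) and Col15a1 (-1.07 and 0.28) had opposite signs on the plates. The median over the members was -0.52 and over all genes -0.35. This split depended on scaling: with TMM factors 3 members were higher (Col13a1 3.30, Col16a1 1.34 and Col23a1 1.15) and 1, Col8a2 (-2.11), was lower, with Col8a1 at -0.98. The shares of all genes past the rule were not computed with TMM factors. The median gene with at least 10 CPM was at 0.02 with them, against -0.34 without. Without plate 211, which leaves plate 215 with its shallow tdT+ cells, Col8a1 was at -0.15.

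In the tdT+ population, Col8a1 rose after injury by 1.89 (1.77 to 2.88 over the plate pairs) and Col12a1 by 1.14 (1.00 to 1.89), while Col8a2 changed by -3.12 (-3.93 to -2.97). These are 2 of 8 higher against 10.2% of all genes and 1 of 8 lower against 33.7%, with 44% of all genes past the rule in either direction. The 3 of 8 members past the rule are thus not above the share of all genes. Col18a1 was at 0.61 (0.26 to 1.71), Col15a1 at -0.62 (-0.87 to 0.41), Col13a1 at -0.46, Col16a1 at -0.28 and Col23a1 at -0.75. The median gene with at least 10 CPM shifted by -0.56 in this comparison, and by 0.09 with TMM factors. On that scaling Col18a1 met the rule at 1.29 and Col15a1, Col13a1 and Col16a1 turned from negative to 0.05, 0.17 and 0.36. Without plate 213 the differences of Col18a1 and Col23a1 were 1.23 and -1.35.

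In the tdT- population 4 of 8 members rose after injury, against 9.43% of all genes, and 1 fell, against 16.2%. Col15a1 rose by 3.20 (2.62 to 3.63 over the plate pairs), Col12a1 by 3.17 (2.19 to 4.00), Col18a1 by 2.98 (2.65 to 3.18) and Col8a1 by 2.58 (2.10 to 2.94). Col13a1 changed by -1.53 (-1.72 to -1.08), from 3.46 to 0.546 CPM, and was at -0.35 with a pseudocount of 10 CPM. The differences of Col8a2 (0.49), Col16a1 (-0.23) and Col23a1 (-1.18) varied in sign between plate pairs. The median over the members was 1.53 and over all genes -0.18. Col15a1, Col12a1, Col18a1 and Col8a1 met the rule with TMM and with DESeq2 size factors, without each plate in turn, and without the cell richest in the gene.

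**Figure D2:**
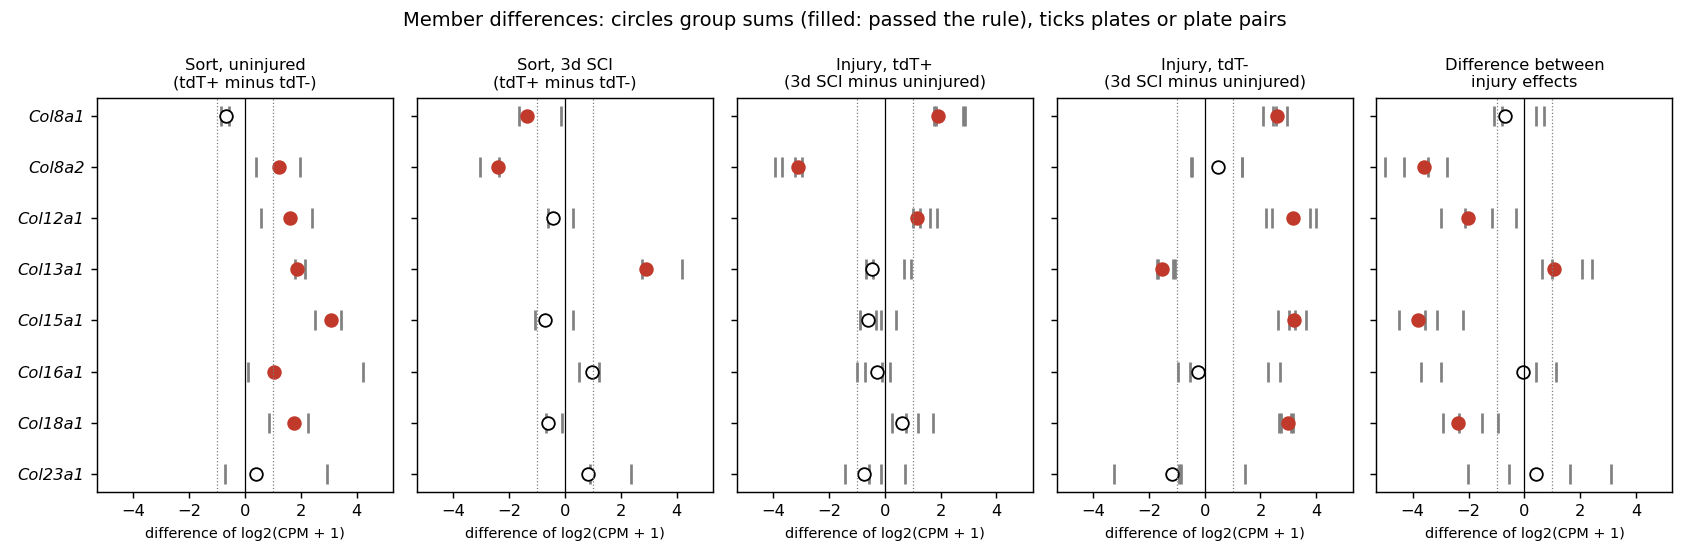
Differences of log2(CPM + 1) for each member in the 5 comparisons. Circles show group sums, filled where the difference was 1 or more with 1 sign over the plates, and grey ticks show plates (sort) or plate pairs (injury and the difference between injury effects). Col15a1 lay at 3.09 in uninjured cord and at 3.20 for injury in tdT- cells, and at -0.62 for injury in tdT+ cells.

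The injury differences themselves diverged between the populations for 5 members. The difference in tdT+ cells minus that in tdT- cells was -3.82 for Col15a1 (-4.50 to -2.21 over 4 plate pairs), -3.60 for Col8a2 (-5.003 to -2.78), -2.37 for Col18a1 (-2.92 to -0.94) and -2.03 for Col12a1 (-2.999 to -0.31). Those 4 stand against 20.5% of all genes below by the rule. Col13a1 lay above, at 1.07 (0.64 to 2.42), against 4.31% of all genes, and 24.8% of all genes lay on either side. Col8a1, at -0.69, Col16a1 and Col23a1 had plate pairs of both signs. With CPM averaged over cells, 3 members met the rule, and Col12a1 was at -0.97. The share of all genes past the rule was not computed for that setting. Among the collagens compared, no fibrillar chain of the 5 met the rule (-0.27 for Col1a1 to 0.99 for Col5a1), whereas Col4a1 (-1.27) and Col4a2 (-1.76) did, on the same side as the multiplexins.

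Fibrillar collagens rose in both populations: 5 of 5 met the rule in each, with medians of 2.64 in tdT+ and 2.30 in tdT- cells. Over the 20 other collagen chains tested, 8 were higher and 2 lower after injury in tdT+ cells, and 14 higher and 3 lower in tdT- cells. Col14a1, which like Col12a1 encodes a fibril-associated collagen, was at 8.62, 52.9, 20.7 and 137.6 CPM and so was lower in tdT+ cells both before (-2.49) and after injury (-2.67). Comparisons that share a control group are not independent of each other.

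Of the 6 collagen receptors tested (Itga2, the remaining one of 7, was under 5 CPM), Itga1, the alpha subunit of a collagen-binding integrin, went from 453 to 80.1 CPM in tdT+ cells (-2.49) and from 482 to 639 CPM in tdT- cells (0.41). Itga10 was lower in injured tdT+ cells (-1.69), and Itga11 was higher in injured tdT- cells (1.75). The collagen receptor kinase Ddr2 did not meet the rule in any comparison, nor did the integrin subunit Itgb1. Of 6 proteases that cleave collagens or their propeptides, 4 were higher after injury in each population. Bmp1, a procollagen C-proteinase, rose by 2.49 and 2.56, and the membrane-bound Mmp14 by 1.66 and 2.77, in tdT+ and tdT- cells. Furin, which sheds transmembrane collagens, stayed between 44.4 and 65.1 CPM.

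Which cells held the members was examined by clustering the 468 cells without the 8 members, Slc1a3 or Pdgfrb among the clustering genes. Of 6 clusters, cluster 4 (70 cells) was perivascular fibroblast-like, with 9 of 9 fibroblast markers raised, cluster 5 (48 cells) pericyte-like, with 7 of 9 pericyte markers raised and Ednrb leading, and cluster 6 (18 cells) vSMC-like, with 5 of 6 vSMC markers raised. Il6 was also among the 10 leading genes of cluster 5. Acta2 and Mylk, 2 of 6 vSMC markers, were raised in cluster 5 too, while the pericyte markers Atp13a5 and Higd1b were not. In cluster 4, 1 of 5 meningeal markers, Slc6a13, was raised, and the meningeal sum, 1516 CPM, was the highest of the clusters. Cluster 1, with 6 of 9 fibroblast and 6 of 6 cell cycle markers raised, is left unnamed. Acta2 and Tagln, 2 of 6 vSMC markers, and Aldh1a2, 1 of 5 meningeal markers, were raised in it too. Clusters 2 and 3 (77 cells), in which pericyte and endothelial markers were raised together, are also left unnamed. Cluster 1 held 11, 10, 100 and 18 cells of the 4 groups, cluster 2 held 59, 51, 1 and 5, and 47 of the 48 cells of cluster 5 were injured tdT- cells, so cluster 5 nearly coincides with 1 group. The division depended on the clustering resolution. At 0.3 in place of 0.5, cluster 4 merged with cluster 1 (208 cells together), cluster 5 with cluster 6 (66 cells) and cluster 2 with cluster 3 (194 cells), so the values of clusters 4, 5 and 6 rest on the finer division. Of the 21 uninjured cells in cluster 1, 18 had under 20000 counts.

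Pooled over the 4 groups, fibroblast-like cluster 4 held 16.5% of all counts and a larger share of the counts of each member. The shares were 93.8% for Col8a2, 77.7% for Col13a1, 69.1% for Col23a1, 59.3% for Col12a1, 51.5% for Col16a1, 47.8% for Col15a1, 41.3% for Col8a1 and 30.1% for Col18a1. Pericyte-like cluster 5, with 9.27% of all counts, held 30.2% of Col18a1, 23.2% of Col15a1 and 20.1% of Col8a1, but 1.20% of Col12a1 and 0.203% of Col8a2. These shares differed between groups. In injured tdT+ cells cluster 4 held 14.3% of the counts, 11.2% of Col12a1, 16.8% of Col15a1 and 16.7% of Col8a2, while cluster 1 held 84.3% of the counts and 88.2%, 82.97% and 83.3% of these genes. In injured tdT- cells cluster 4 held 18.8% of the counts, 82.7% of Col12a1 and 96.2% of Col8a2, but 7.15% of Col15a1 and 2.76% of Col18a1. In CPM over all groups, Col18a1 was at 975 in cluster 5, 547 in cluster 4, 324 in vSMC-like cluster 6, 323 in cluster 1, 90.1 in cluster 3 and 27.1 in cluster 2. All 18 vSMC-like cells had a Col18a1 count, whereas 2 of them had a Col15a1 count (7.59 CPM).

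**Figure D3:**
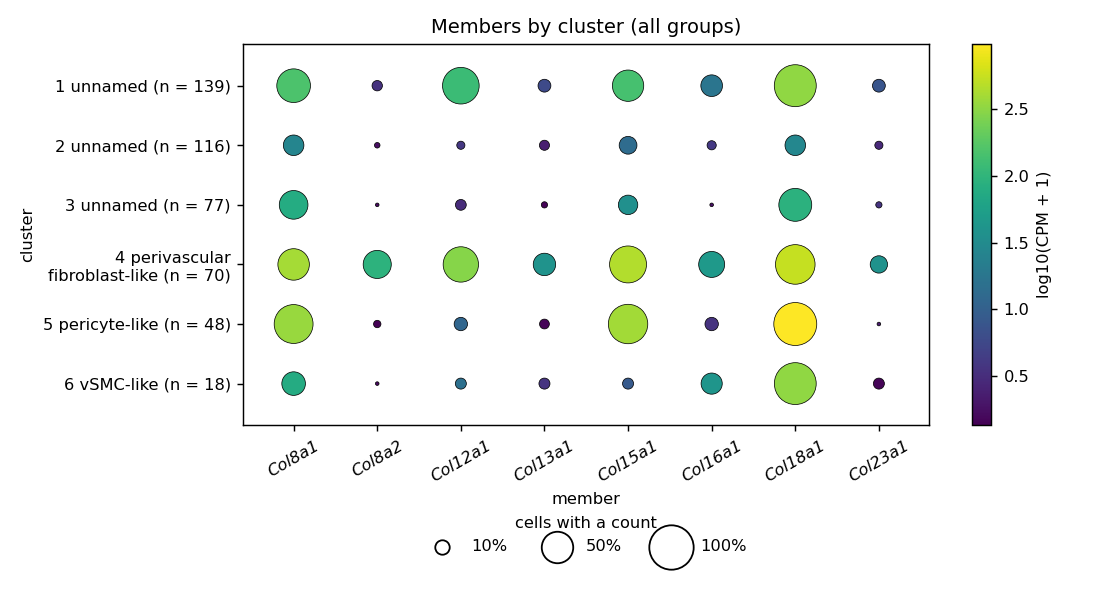
Members by cluster over all groups, with color for log10(CPM + 1) of summed counts and circle size for the percentage of cells with a count after thinning to 20000 counts per cell. Col8a2, Col13a1 and Col23a1 were brightest in cluster 4, Col18a1 was brightest in cluster 5 (975 CPM), and no member exceeded 90.1 CPM in clusters 2 and 3.

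In uninjured tdT+ cells the multiplexins were concentrated in the fibroblast-like cells. The 26 cells of cluster 4 made up 22.98% of the group's counts and held 94.7% of its Col15a1 and 87.1% of its Col18a1 counts. All 26 had counts of both genes. The lowest, median and highest cell were at 21.9, 649 and 2632 CPM for Col15a1 and at 140, 840 and 1749 CPM for Col18a1. Plates 209 and 213 gave 862 and 898 CPM for Col15a1 and 719 and 990 CPM for Col18a1 in these cells. The 8 uninjured tdT- cells of cluster 4 were at 107 CPM for Col15a1 and 167 CPM for Col18a1, with cells from 0 to 487.5 and from 0 to 446 CPM, and 3 and 2 of them had no count. Uninjured tdT- cells instead had 44.2% of their Col18a1 counts in the 14 vSMC-like cells, at 256 CPM.

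After injury, Col15a1 was at 164 CPM in the 18 tdT+ cells of cluster 4, with a median cell at 42.0 CPM, and at 105.5 CPM without the highest cell. It was at 88.5 CPM in the 18 injured tdT- cells, where the median cell was at 24.01 CPM. In the injured tdT+ cells plate 211 gave 105.6 CPM and plate 215, with 4 cells, 1045 CPM, the latter above the 862 and 898 CPM of the uninjured tdT+ plates. A single cell held 98.3% of the Col15a1 counts of those 4 cells, and the other cells were at 101.8 CPM. Col18a1 was at 523 CPM in the injured tdT+ cells, with a median cell at 520 CPM, but its plates lay apart at 467 CPM (14 cells) and 1362 CPM (4 cells), on either side of the uninjured values. In the injured tdT- cells Col18a1 was at 81.5 CPM, with plates at 52.5 and 103.4 CPM and a median cell at 21.4 CPM. These plates were below both uninjured tdT+ plates but overlapped those of the 8 uninjured tdT- cells, at 71.8 and 266 CPM. The pericyte-like cells carried the multiplexins of the injured tdT- group. The 47 cells held 43.15% of that group's counts, 74.7% of its Col15a1 and 76.7% of its Col18a1 counts. They were at 403 CPM for Col15a1 (451 and 358 on plates 211 and 215) and at 988 CPM for Col18a1 (1019 and 960). Col15a1 was detected in 41 and Col18a1 in 45 of them, with median cells at 371 and 817 CPM.

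With cluster 5 left out, an alternative added after seeing the data, the injury difference in tdT- cells was 2.04 for Col15a1 and 1.69 for Col18a1 in the remaining 56 injured cells, against 3.20 and 2.98 with it. That of Col8a1 was 2.77 and that of Col12a1 3.95. The 14 injured tdT- cells of cluster 3 were at 232 CPM for Col18a1, with a count in 13, where the 23 uninjured ones were at 67.6 CPM, with a count in 13. Col15a1 was at 68.6 and 47.5 CPM in the same cells. In cluster 1 the 100 injured tdT+ cells were at 337 CPM for Col18a1, at 337 on either plate, and at 137.6 CPM for Col15a1.

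Col8a1 and Col12a1 were highest in the injured tdT- cells of cluster 4. Col8a1 was at 1176 CPM there (1591 and 861 on plates 211 and 215, and 833 without the highest cell), at 325 CPM in the injured tdT+ cells of that cluster, and at 194 and 70.8 CPM in the 8 and 26 uninjured tdT- and tdT+ cells. The median cells of the injured tdT- and tdT+ cells were at 353 and 194 CPM, and those of the uninjured tdT- and tdT+ cells at 240 and 0 CPM. Pericyte-like cells were at 347 CPM for Col8a1, with a count in 40 of 47. Col12a1 was at 693 CPM in the injured tdT- cells of cluster 4 (806 and 606 on the plates) and at 91.1, 204 and 214 CPM in the injured tdT+, uninjured tdT+ and uninjured tdT- cells. In the pericyte-like cells it was at 9.04 CPM. Among injured tdT- cells, Col8a1 was thus high in both the fibroblast-like and the pericyte-like cells, and Col12a1 in the fibroblast-like ones. In the injured tdT+ cells of cluster 4, the summed level of Col12a1 was below both uninjured groups of that cluster, but the plates overlapped. Plate 211 of these injured cells was below every uninjured plate. Plate 215, with 51 counts in 4 cells, gave 183.7 CPM. That was not below plate 213 of the uninjured tdT+ (183.3 CPM) and tdT- (174.5 CPM) cells.

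The other members differed within cluster 4 as well. Col8a2 was at 125.2 and 149.96 CPM in uninjured tdT+ and tdT- cells and at 88.5 CPM in injured tdT- cells, but at 2.92 CPM in injured tdT+ cells, where 2 of 18 cells had a count against 12 of 18. Col13a1 was at 63.2 and 40.4 CPM in uninjured and injured tdT+ cells and at 22.5 and 1.04 CPM in tdT- cells, the 22.5 falling to 7.88 CPM without 1 cell. Col16a1 was at 81.6 CPM in uninjured tdT+ cells, 158.06 and 44.4 on the plates, and between 7.82 and 21.8 CPM in the other groups. Col23a1 came from 1 cell in the uninjured tdT- group.

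**Figure D4:**
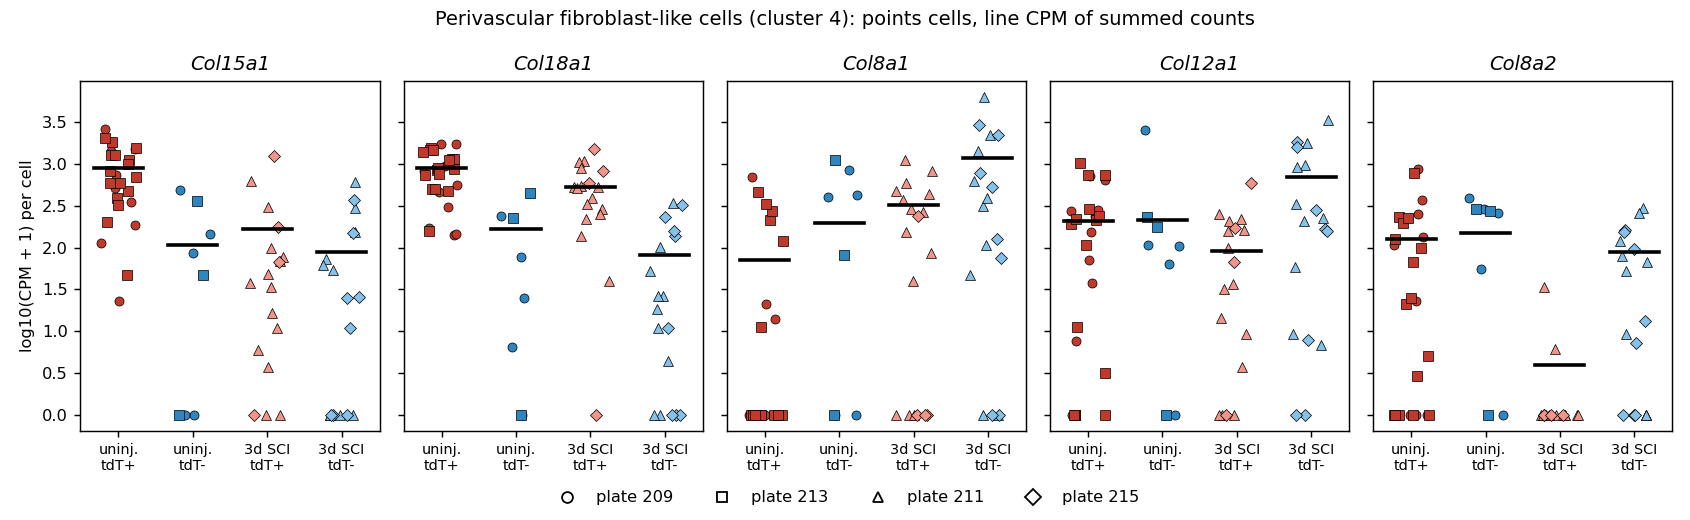
Col15a1, Col18a1, Col8a1, Col12a1 and Col8a2 in single cells of cluster 4, as log10(CPM + 1), with symbols for plates and a line at the CPM of summed counts. All 26 uninjured tdT+ cells lay above 0 for Col15a1 and Col18a1, and 2 of 18 injured tdT+ cells lay above 0 for Col8a2.

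The share of cells with a count was compared after thinning each cell to 20000 counts, which left out 10, 14, 22 and 1 shallower cells of the groups in the order used above. Col18a1 was detected in 44.1% (exact binomial 95% interval 35.3 to 53.2) and 39.1% (29.1 to 49.9) of uninjured tdT+ and tdT- cells and in 95% (88.7 to 98.4) and 81.4% (72.4 to 88.4) of injured ones. Without thinning the shares were 55.5%, 46.2%, 90.98% and 89.3%. Col12a1 was detected in 17.3%, 6.52%, 75% (65.3 to 83.1) and 21.6% (14.04 to 30.8) of cells, and in 27.01%, 9.43%, 79.5% and 35.9% without thinning. Injured tdT- cells thus had the higher CPM of Col12a1 (157.5 against 116.3) but the smaller share of cells, and 1 cell held 26.2% of their counts. Col15a1 was found in 29.9%, 18.5%, 51% and 59.8% of cells (45.3%, 23.6%, 67.2% and 73.8% without thinning), and Col8a1 in 26.8%, 29.3%, 58% and 67.6% (34.3%, 37.7%, 73.8% and 77.7%). For comparison, Col12a1 was found in 2.73% of the 110 thinned cells of cluster 2, where pericyte and endothelial markers were raised, at a median depth of 272670 counts before thinning (206445 to 308838 in the groups).

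The number of members detected per cell differed between groups and clusters. In thinned cells, 3 or more of the 8 were detected in 19.7% of uninjured tdT+ cells, 11.96% of uninjured tdT- cells, 82% of injured tdT+ cells and 54.9% of injured tdT- cells. By cluster the share was 79.4% in cluster 4, 75.7% in cluster 1, 61.7% in cluster 5 and 16.7% in cluster 6, against 5.45% and 5.33% in clusters 2 and 3. No cell held all 8. The shares expected from the detection rates of single members were not computed, so whether members occur together beyond those rates was not tested.

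Across the 421 thinned cells, the gene most similar to Col15a1 among 11433 was Col18a1, and the reverse also held (Pearson r = 0.58 on log2 of the thinned count plus 1). Within groups r was 0.77 in uninjured tdT+ cells, 0.52 and 0.49 in injured tdT+ and tdT- cells and -0.05 in uninjured tdT- cells, where 6 cells held both. Next for Col15a1 came Nid1 (0.44) and Lamb1 (0.43), basement membrane components, and for Col18a1 Bgn (0.52) and Bmp1 (0.52). Col12a1 was nearest to Serpinf1 (0.63), Col1a1 (0.63) and Col3a1 (0.62). Col8a2 was nearest to Mfap4 (0.59), Tmem119 (0.58) and Fbln5 (0.58), and Col13a1 to Fmod (0.55), Lama1 (0.51) and Cemip (0.51). Col8a1 had no gene above 0.37 (Fstl1), and its r with its partner chain Col8a2 was 0.23, with 20 cells holding both. Col16a1 and Col23a1 did not exceed 0.40, on 59 and 23 cells with a count. Cells share plates, depth and groups, so these are descriptions.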

How the data were processed

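Counts per gene and cell, as deposited by the authors in a single table of 1968 cell columns, were used for the 503 cells matched to labels, and the other 1465 columns were not used. The genome build was mm10 per the labels. The aligner, the annotation and the choice of reads or molecules for counting are not given in the sources used here. Spike-in rows (0.0314% of counts) were left out. Cells with at least 200 genes and under 20% mitochondrial counts were kept (502). Of these, 34 were removed for Pecam1 over 1 on ln(1 + counts per 10000) and over Pdgfrb, and 0 for Gfap or Ptprc, leaving 468. The upper limit of 1200 genes named in the study's methods was not applied, since 33 kept cells lie at or under it. No doublet caller was run. The labels give 3 days after injury and were followed, although the design text of the series gives 5 days.

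Counts were summed per group and plate with Python 3.11.15, numpy 2.4.6 and scipy 1.17.1, and compared as log2(CPM + 1). Intervals and floors cover counting error only. Cells were clustered with Seurat 5.3.0 in R 4.3.3 (2000 variable genes, 20 components, resolution 0.5). Scaling factors of edgeR 4.0.16 (TMM) and DESeq2 1.42.0 served as alternatives, with no test from either tool. The rule for named genes was all 8 members, examples from the fixed lists of other collagens, receptors and proteases (the examples picked with their values known), and the 3 genes with the highest r with each member. The members and lists were chosen with earlier results of these data known. Sequences are from RefSeq (GRCm38.p6), with 7 of 8 members matched.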

Additional observations from a re-analysis of the deposited data

Results flagged for a closer look

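The 34 cells removed for Pecam1 above Pdgfrb entered no comparison, and 7 members were detected in them above the 0.345 CPM that a count of 0 allows. Most of these cells also held Pdgfrb, with a count in 29 of the 34. Its level was 840 CPM, against 1160.5 CPM for Pecam1. Col18a1 was at 68.4 CPM, with a count in 14 of the 34 cells, Col15a1 at 11.9 CPM and Col8a1 at 10.01 CPM. Col8a2 and Col12a1 were at 3.45 CPM each, Col23a1 at 2.65 CPM and Col13a1 at 1.15 CPM. Col16a1 had 0 counts.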

How the results depend on the processing

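No paired analysis was possible because each group is 1 sample with no test and the labels give no shared animal or replicate number. Both sorted populations lay on each plate, and the sort differences within plates are given with each value. At resolution 0.3 clusters 4 and 1 merged, as did 5 and 6, and 2 and 3. Of 453 alternative values of single members, 398 stayed within the plate spread, 55 moved and 0 reversed a called direction. The 398 do not by themselves show stable values. They include the values without the minimum of 5 CPM, which repeat the main ones because every member passed it. The plate spread was also wide for some members. For Col16a1 in the uninjured sort comparison the plate values, 4.23 and 0.10, had a standard deviation of 2.92. A fall from its main value of 1.03 to 0.10, which loses the call, thus stays within that spread. The number of members past the size rule moved by over 1.5 times in the uninjured sort comparison from 6 to 3 with a pseudocount of 10 CPM and to 0 with the upper limit of 1200 genes, and in the difference between injury effects from 5 to 3 with the mean of each cell's CPM. Over single plates left out, the numbers were 4 to 5 (uninjured sort), 2 to 6 (sort at 3 days, 6 without plate 215 against 3), 3 to 5 (injury in tdTomato+EGFP+ cells, 5 without plate 213 against 3), 5 to 7 (injury in tdTomato-EGFP+ cells) and 4 to 6 (difference). Shares of all genes past the rule were computed for the main setting only, so these alternative numbers have no such share beside them. Col13a1 lost its call in the difference without the cell richest in it (0.67). The cause was not tested. The limit of 1200 genes could not be run for injured tdTomato-EGFP+ cells, of which 0 lie under it. With no animals named, neither plates nor cells give the spread between mice, and a single cell held between 58.3% and 83.6% of the Col23a1 counts in 3 of the 4 groups.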
